A study of Homo sapiens with 8 samples.

Results

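The heat shock proteins and cytosolic chaperones were followed as a list of 41 genes: the heat shock factors HSF1 and HSF2, the HSP70, HSP110 and HSP40 proteins, HSP90 with its co-chaperones, the subunits of the chaperonin TRiC, their mitochondrial relatives, and BAG3 and HSPB1. Members were found by gene symbol in the annotation of the array, using probe sets that name 1 gene alone, and 1 probe set, that of highest mean signal, stood for a gene. On that rule 37 of the 41 members were measured. HSPA1A and HSPA1B share their probe sets and count as 1, which gives 36 measurements among the 14163 genes tested. Each probe set of HSPA8 and of TCP1 also names a small nucleolar RNA gene, and HSF2 and AHSA1 are named by no probe set in the annotation used here, so these 4 members have no value. All 36 measurements passed the filter on low signals, which asked for a signal over 60.0, the median over all probe sets and arrays, on 2 or more arrays. On the probe sets used, HSPA1L and HSPA2 passed through the shRNA arm alone.

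The study measured gene expression on 8 Affymetrix 3' arrays in HEL cells, a human erythroleukaemia line known for an activating JAK2 mutation, with 2 arrays in each of 4 groups. In the drug arm, cells grew for 16 h with 0.5 µM CEP701 (lestaurtinib, a kinase inhibitor that acts on JAK2 among others) or with the vehicle DMSO. In the shRNA arm, a stable line made with a lentiviral pLKO vector expressed an shRNA against PRMT5 (shPRMT5), an arginine methyltransferase, and its control carried a scrambled shRNA (scramble). Whether the arrays of a group are separate cultures is not stated in the labels, and the p-values therefore speak only to the spread among these arrays, which may be technical, and 2 arrays a group limit the precision of every value.

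Molecular chaperones bind unfolded or partly folded proteins and release them in cycles driven by ATP. HSP40 proteins bring clients to HSP70, HSP110 proteins exchange its nucleotide, and HSP90 with its co-chaperones finishes the folding of many kinases, JAK2 among them, while the TRiC ring folds actin and tubulin. Under proteotoxic stress HSF1 binds heat shock elements, arrays of inverted GAA units, in the promoters of many of these genes.

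Their letters are shown here because they are the sequence that HSF1 reads, although most members hold no exact 3-unit match in the windows searched. RefSeq promoter windows of the assembly GRCh38.p14, 250 bases before to 50 after a gene start, were found for 38 of the 41 members, and not for HSF1, HSPA14 and FKBP4. The 3-unit motif GAANNTTCNNGAA, searched on both strands, lay in at least 1 window of 8 of these 38 genes (CHORDC1, DNAJA1, DNAJB6, HSP90AA1, HSP90AB1, HSPA6, HSPA8 and HSPD1). It was in 14.8% of the 54 member windows and in 0.49% of all 35116 windows of that length. The shorter motif GAANNTTC, which the longer one contains, was found in 16 of the 38 genes, in 31.5% of the member windows and in 6.77% of all windows. The other short form, TTCNNGAA, was found in 13 of the 38 genes. It lay in 24.1% of the member windows and in 7.74% of all windows. Only exact matches were counted. The stretches below run 5' to 3' on the gene's strand and reach 150 bases before the gene start to 20 after it. Capitals mark the 3-unit motif in DNAJA1 (chr9:33025123-33025292, plus strand), CHORDC1 (chr11:90223030-90223199, minus strand), HSP90AA1 (chr14:102087025-102087194, minus strand) and HSPA6 (chr1:161524390-161524559, plus strand).
DNAJA1: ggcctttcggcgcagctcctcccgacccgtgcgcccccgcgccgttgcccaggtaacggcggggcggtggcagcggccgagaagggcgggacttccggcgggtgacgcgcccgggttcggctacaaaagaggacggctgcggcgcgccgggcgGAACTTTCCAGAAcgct
CHORDC1: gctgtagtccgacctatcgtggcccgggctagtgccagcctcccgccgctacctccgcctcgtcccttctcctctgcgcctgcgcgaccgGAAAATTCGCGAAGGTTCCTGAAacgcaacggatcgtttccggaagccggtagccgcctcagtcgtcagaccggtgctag
HSP90AA1: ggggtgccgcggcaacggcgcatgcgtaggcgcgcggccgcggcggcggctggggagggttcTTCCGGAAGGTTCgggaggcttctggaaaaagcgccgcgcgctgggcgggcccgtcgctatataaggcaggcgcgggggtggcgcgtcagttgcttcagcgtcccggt
HSPA6: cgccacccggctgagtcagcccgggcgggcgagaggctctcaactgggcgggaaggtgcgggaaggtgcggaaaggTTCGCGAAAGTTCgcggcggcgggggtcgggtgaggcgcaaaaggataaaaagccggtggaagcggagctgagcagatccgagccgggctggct
In DNAJA1 the motif begins 4 bases into the transcript. In CHORDC1, 3 matches overlap into 1 run that begins 60 bases before the gene start. A match describes letters in a window and not a bound site.

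The stress-inducible HSP70 genes HSPA1A (chr6:31815393-31815562, plus strand) and HSPA1B (chr6:31827588-31827757, plus strand) hold no 3-unit match in their windows, and capitals mark their match to GAANNTTC.
HSPA1A: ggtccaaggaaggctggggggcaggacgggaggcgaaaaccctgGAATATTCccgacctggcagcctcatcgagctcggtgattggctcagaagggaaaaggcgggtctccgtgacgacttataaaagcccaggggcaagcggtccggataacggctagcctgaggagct
HSPA1B: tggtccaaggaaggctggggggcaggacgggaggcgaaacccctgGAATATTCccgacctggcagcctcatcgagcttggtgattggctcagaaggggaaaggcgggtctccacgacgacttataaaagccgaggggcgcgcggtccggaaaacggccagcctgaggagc
With a shift of 1 base, 277 of 299 bases of the 2 full windows are identical. HSPA1L, HSPA1A and HSPA1B follow each other on chromosome 6 among protein-coding genes, and the windows of HSPA1L and HSPA1A overlap by 241 bases on opposite strands. The windows of HSPD1 and HSPE1 on chromosome 2 likewise overlap by 204 bases on opposite strands.

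PRMT5 had signals of 664.0 and 314.7 in shPRMT5 cells and 1794 and 984.4 in scramble cells, and 3023 and 2750 with CEP701 and 3419 and 3221 with DMSO. Over all genes, correlations were 0.964 to 0.978 between arrays of a group, 0.954 to 0.972 between the groups of an arm and 0.804 to 0.845 between the arms. All 4 megakaryocyte markers and 4 of the 5 measured erythroid markers were above 60.0 on every array, and 1 of the 3 T cell, 1 of the 2 B cell and 1 of the 3 fibroblast markers were too. The summed signal of the erythroid markers was 14290 and 14256 with CEP701, 12270 and 13392 with DMSO, 13887 and 11565 with shPRMT5, and 12200 and 12363 with scramble.

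The first comparison asks how CEP701 altered these genes relative to DMSO. CEP701 lowered 7 of the 36 measurements and raised none at an adjusted p under 0.05: HSPH1, DNAJA1, HSPA1A/HSPA1B, HSPA4, FKBP4, PTGES3 and DNAJB1. Of all genes tested, 2.05% were called lower and 3.74% higher. Differences are given as log2 of the signal plus 10, CEP701 minus DMSO, with limma's standard error and its adjusted p over all genes. The median was -0.49 over the 36 measurements, against 0.10 over all genes, and 28 of the 36 lay below 0, against 41.9% of all genes. In 27 of 36 both CEP701 arrays lay below both DMSO arrays, which held for 25.7% of all genes. HSPA2, whose drug-arm signals were all below 60.0, is counted in both the 28 and the 27. In 6 of 36 (HSF1, HSPA6, HSPA13, DNAJB2, DNAJB4 and DNAJB6) both lay above, which held for 36.2% of all genes. In such bulk samples fewer cells of a type and less RNA per cell cannot be told apart.

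Among the HSP70 and HSP110 proteins, 3 of 9 fell and the median was -0.50. HSPH1, an HSP110 protein and nucleotide exchange factor of HSP70, had signals of 3706 and 3925 with CEP701, against 8729 and 8623 with DMSO. Both treated arrays had less than the lower DMSO array by a wide margin, with a difference of -1.18 ± 0.22 (SE, adjusted p = 0.0211). Its other probe sets differed by -1.15 and -0.57. HSPA4, another exchange factor of the same kind, had signals of 2786 and 2189 with CEP701, against 4535 and 5127 with DMSO, again without overlap (-0.96 ± 0.24, adjusted p = 0.0486). Its other probe sets disagreed in size: 2 differed by -0.96 and -0.59, and 1 by -0.10 with overlapping groups.

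The inducible HSP70 pair HSPA1A/HSPA1B had signals of 819.1 and 811.6 with CEP701, against 1395 and 1410 with DMSO. The 2 arrays of each group were close to each other and the groups far apart (-0.77 ± 0.15, adjusted p = 0.0251). The relatives below the threshold went both ways. HSPA14, a ribosome-associated HSP70, differed by -1.11 ± 0.28 (adjusted p = 0.0536) and HSPA6, an HSP70 made under strong stress, by 1.22 ± 0.53 (adjusted p = 0.199). HSPA6 had signals of 137.9 and 241.5 with CEP701, against 89.2 and 59.4 with DMSO. Its other probe set differed by 0.42, without overlap. HSPA4L and HSPA13 differed by -0.50 and 0.23. The other HSPA13 probe set differed by -0.08, with overlapping groups. On the probe sets used, the 4 drug-arm signals of HSPA2 and of HSPA1L were all below 60.0, so no difference is given for them.

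Of the 8 HSP40 proteins, the J-domain partners of HSP70, 2 fell and the family spread over both directions (median -0.11). DNAJA1 had signals of 4515 and 4260 with CEP701, against 8653 and 8726 with DMSO. The DMSO arrays were nearly equal and well above both treated arrays (-0.98 ± 0.17, adjusted p = 0.0150), and its other probe set differed by -0.58. DNAJB1, the heat-inducible partner of HSP70, had signals of 1300 and 1235 with CEP701, against 1964 and 1942 with DMSO, without overlap (-0.62 ± 0.15, adjusted p = 0.0461). DNAJA4 gave the most negative value of the 36, -1.69 ± 0.45, and missed the threshold (adjusted p = 0.0611). Its other probe sets disagreed in size, at -1.33, -0.81 and, with overlapping groups, -0.16. At the other end DNAJB6, a J protein that suppresses aggregation, gave 0.60 ± 0.18 (adjusted p = 0.0803). The remaining 4, DNAJB2, DNAJB4, DNAJB5 and DNAJA2, ranged between -0.13 and 0.46.

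**Figure D1:**
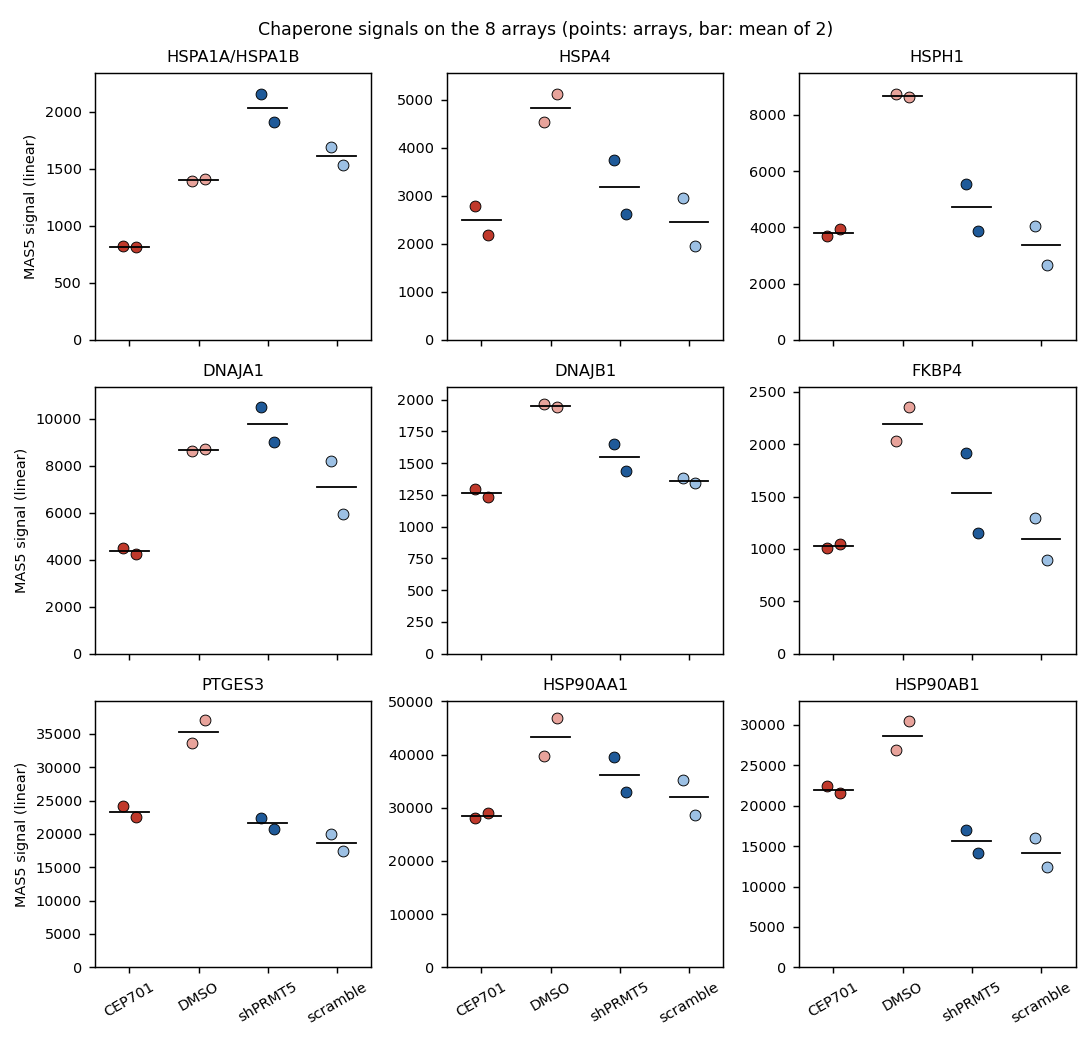
Each panel plots the deposited MAS5 signal of 1 gene on a linear axis from 0 for the 8 arrays, in the order CEP701, DMSO, shPRMT5 and scramble, with points for arrays and a bar for the mean of 2. In all 9 panels both CEP701 points lie below both DMSO points, while the shPRMT5 and scramble points overlap for HSPA4, HSPH1, FKBP4, HSP90AA1 and HSP90AB1.

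All 6 measured genes of HSP90 and its co-chaperones lay below 0 with CEP701, under each of 3 other scalings of the arrays too, and 2 of them fell (median -0.69). FKBP4, an immunophilin co-chaperone, had signals of 1010 and 1047 with CEP701, against 2027 and 2353 with DMSO. Its treated arrays agreed closely and the DMSO arrays were far above them (-1.08 ± 0.26, adjusted p = 0.0451). PTGES3, the co-chaperone p23, had signals of 24180 and 22490 with CEP701, against 33573 and 37063 with DMSO, without overlap (-0.60 ± 0.13, adjusted p = 0.0314). HSP90AA1, the inducible HSP90, had 28047 and 28974 with CEP701, against 39795 and 46779 with DMSO. Its groups did not overlap and its difference of -0.60 ± 0.15 just missed the threshold (adjusted p = 0.0519). HSP90AB1, the constitutive HSP90, had 22387 and 21552 with CEP701, against 26834 and 30498 with DMSO (-0.38 ± 0.16, adjusted p = 0.179). Of its other probe sets, 1 differed by -0.31 and 1 by 0.07 with overlapping groups. STIP1, which links HSP70 to HSP90, and CHORDC1 gave -1.02 ± 0.31 (adjusted p = 0.0819) and -0.78 ± 0.27 (adjusted p = 0.121).

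No TRiC subunit and no mitochondrial chaperone passed limma's adjusted threshold. By limma's unadjusted p, 2 of the 6 subunits and 3 of the 4 mitochondrial genes were under 0.05, against 24% of all genes. The subunits ranged from -0.69 for CCT5 to -0.22 for CCT8 (median -0.48), below 0 in 6 of 6, and the lowest adjusted p was 0.126. CCT8 had 37775 and 34770 with CEP701, against 39079 and 45744 with DMSO, so the groups lay close together without overlap (-0.22 ± 0.12, adjusted p = 0.311). HSPD1, the mitochondrial HSP60, had 42193 and 37000 with CEP701, against 52671 and 63548 with DMSO (-0.55 ± 0.21, adjusted p = 0.153). Its partner HSPE1, HSPA9 (mitochondrial HSP70) and DNAJA3 gave -0.94, -0.68 and -0.38. Directions of the 6 subunits and of these 4 genes were the same under the 3 other scalings.

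HSF1, the factor itself, had signals of 1195 and 1114 with CEP701, against 937.9 and 1092 with DMSO, both treated arrays being slightly higher (0.19 ± 0.20, adjusted p = 0.609). The sign of that value turned to -0.06 and -0.31 under 2 of the 3 other scalings. BAG3, an exchange factor of HSP70 induced through HSF1, had 852.4 and 820.9 with CEP701, against 1019 and 929.4 with DMSO (-0.22 ± 0.16, adjusted p = 0.452). HSPB1, the small heat shock protein HSP27, had 3206 and 2822 with CEP701, against 2747 and 2835 with DMSO, with overlap (0.11 ± 0.14, adjusted p = 0.673). Set against the sequences, 1 of the 7 measured genes with the 3-unit motif in a window fell (DNAJA1), and so did 5 of the 26 measured genes whose windows lack it.

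**Figure D2:**
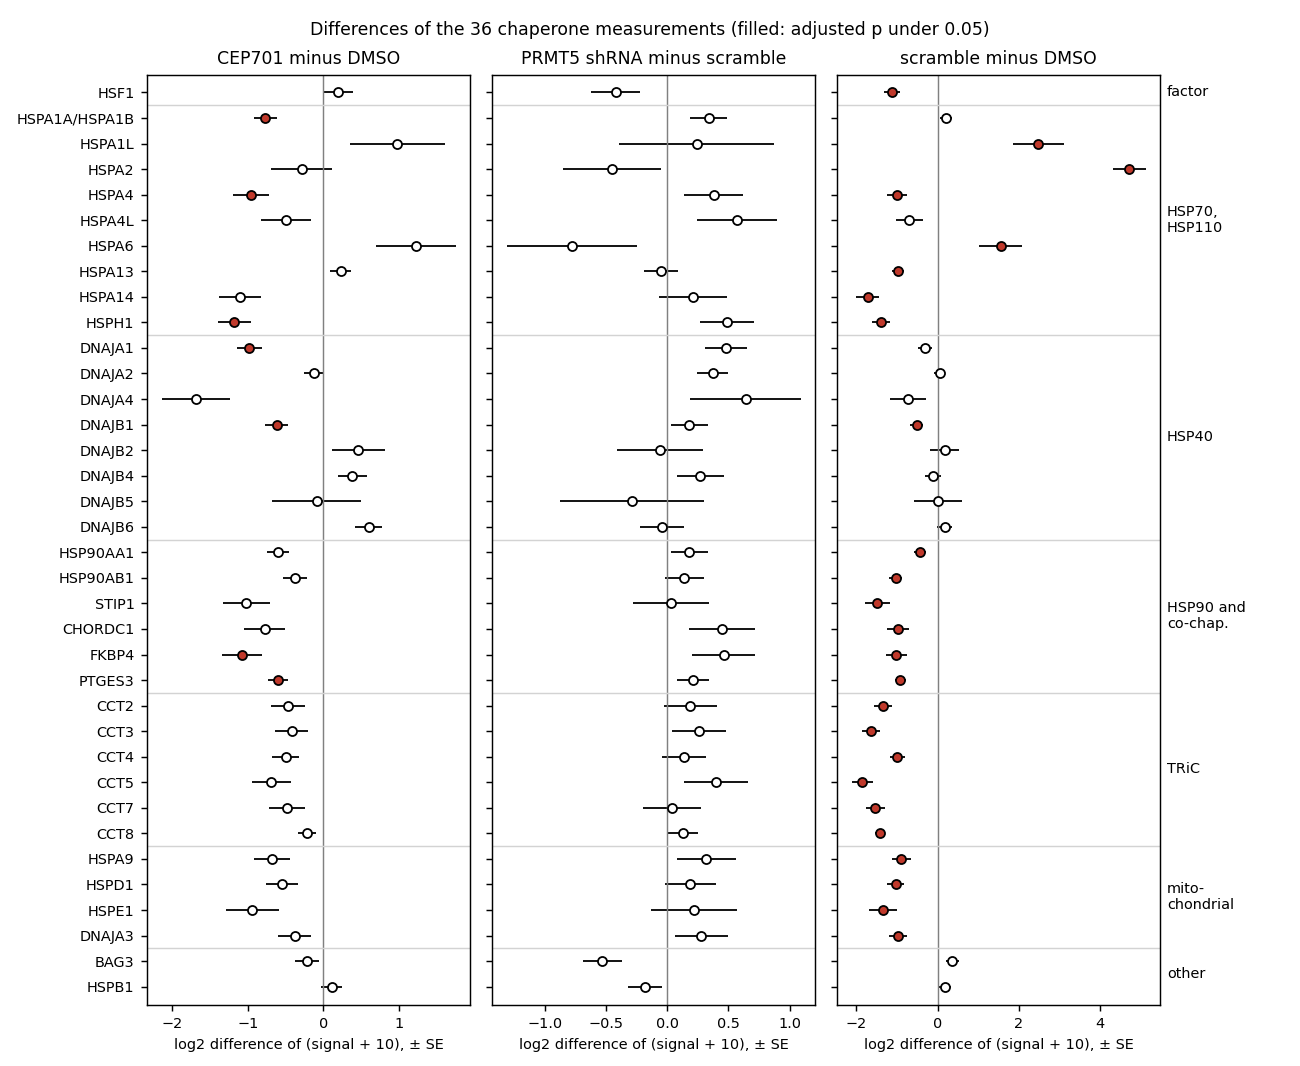
The log2 difference of each of the 36 measurements is plotted with ± 1 SE in 3 comparisons, CEP701 minus DMSO, shPRMT5 minus scramble and scramble minus DMSO, with families separated by grey lines and filled points for an adjusted p under 0.05. HSP90, TRiC and mitochondrial genes lie left of 0 in the first panel and right of 0 in the second, where no point is filled. The widths of the x axes differ between panels, and the points of HSPA1L and HSPA2 in the panels against DMSO rest on signals below 60.0 with DMSO.

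The 7 calls rest on all 4 arrays of the drug arm. Without CEP701 replicate 1, CEP701 replicate 2, DMSO replicate 1 or DMSO replicate 2 no member passed limma's adjusted threshold, with 14, 12, 17 and 13 at an unadjusted p under 0.05, when 5, 9, 14 and 7 genes of all 14163 were still called lower. The 7 differences kept their sign there, which they had to, since the 2 groups did not overlap for these genes. Of the 36 values 27 or 28 lay below 0. No share of all genes is given beside these counts or those at an unadjusted p, so no excess is read from them. Without 1 shRNA-arm array, 11 (either shPRMT5 array) or 12 (either scramble array) members were called lower, when 475 to 490 of all genes were, against 290 with every array, in a fit where all groups share 1 estimate of the spread. With arrays of the shRNA arm that share a title suffix taken as pairs, 22 members were called lower, against 9.71% of all genes, and HSPA6 and DNAJB6 higher, against 12.6% of all genes. The 5'/3' signal ratio of the actin control, a measure of RNA integrity, was 0.116 and 0.161 in CEP701 cells, against 0.199 and 0.198 in DMSO cells. The GAPDH control gave 0.787 and 0.856 in CEP701 cells and 0.882 and 0.809 in DMSO cells, with overlap, and the part of RNA integrity in these differences was not tested. Scaling shifted the median of all genes to 0.03, -0.14 or -0.38, and relative to it the members' median was -0.51, -0.60 or -0.61, against -0.59 as deposited.

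Probe sets that were not used to represent a gene give the members' direction apart from the choice of probe set. Of 38 such probe sets that passed the filter, 33 lay below 0 with CEP701 (median -0.58) and 27 lay above 0 with shPRMT5 (median 0.20). They share arrays and genes with the probe sets used, so they are no further replicates. The matching share over all unused probe sets is not given here.

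The second comparison asks how PRMT5 knockdown altered the same genes relative to scramble. No member passed limma's adjusted threshold in either direction, and of all genes 0.141% were called lower and 0.00706% higher. Limma's unadjusted p was under 0.05 for 4 of 36 members, or 11.1% (BAG3, DNAJA1, DNAJA2 and HSPH1), against 6.69% of all genes. The members' median was 0.20, against 0.00 over all genes, and 9 of 36 lay below 0, against 49.5% of all genes. Both shPRMT5 arrays lay above both scramble arrays in 7 of 36 (HSPA1A/HSPA1B, DNAJA1, DNAJA2, DNAJB1, DNAJB4, PTGES3 and CCT8), which held for 14.1% of all genes. Arrays of this arm share title suffixes by replicate, and within both such pairs shPRMT5 was the higher in 24 of 36 members, which held for 30.1% of all genes.

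DNAJA1 had signals of 10506 and 9025 in shPRMT5 cells, against 8193 and 5965 in scramble cells. Both knockdown arrays lay above both controls, and the pairs differed by 0.36 and 0.60 (0.48 ± 0.17, adjusted p = 0.598). HSPH1 had 5543 and 3885 in shPRMT5 cells, against 4055 and 2671 in scramble cells, with overlap between the groups but not within the pairs, which differed by 0.45 and 0.54 (0.49 ± 0.22, adjusted p = 0.743). With the pairs as a block in limma, HSPH1 (adjusted p = 0.0289) and DNAJA1 (adjusted p = 0.0364) were called higher and no other member was, against 0.318% of all genes. HSPA1A/HSPA1B had 2158 and 1913 in shPRMT5 cells, against 1689 and 1529 in scramble cells, without overlap (0.34 ± 0.15, adjusted p = 0.752). Its second probe set differed by 0.35.

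The exchange factor HSPA4 had 3736 and 2612 in shPRMT5 cells, against 2954 and 1959 in scramble cells (0.38 ± 0.24, adjusted p = 0.831). DNAJB1 had 1652 and 1440 in shPRMT5 cells, against 1385 and 1342 in scramble cells (0.18 ± 0.15, adjusted p = 0.900). FKBP4 had 1916 and 1151 in shPRMT5 cells, against 1296 and 890.4 in scramble cells (0.46 ± 0.26, adjusted p = 0.812). For HSPA4 and FKBP4 the groups overlapped, and for DNAJB1 they did not. PTGES3 had 22432 and 20775 in shPRMT5 cells, against 19958 and 17410 in scramble cells, without overlap (0.21 ± 0.13, adjusted p = 0.822).

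HSP90AA1 had 39545 and 32940 in shPRMT5 cells, against 35302 and 28704 in scramble cells (0.18 ± 0.15, adjusted p = 0.897). HSP90AB1 had 16995 and 14199 in shPRMT5 cells, against 15957 and 12368 in scramble cells (0.14 ± 0.16, adjusted p = 0.933). The groups of both HSP90 genes overlapped, with array 1 above array 2 in each group. CCT8 had 17072 and 17122 in shPRMT5 cells, against 15979 and 15292 in scramble cells (0.13 ± 0.12, adjusted p = 0.914), and HSPD1 had 39149 and 26720 in shPRMT5 cells, against 33274 and 24026 in scramble cells (0.19 ± 0.21, adjusted p = 0.933). The 6 HSP90, 6 TRiC and 4 mitochondrial genes lay above 0 in all 16 cases, under the 3 other scalings too. Their family medians were 0.20, 0.17 and 0.25. The sign was less stable when 1 array was left out, with STIP1 down to -0.38, CCT7 to -0.33 and HSPE1 to -0.27. HSP90AA1, FKBP4, PTGES3, CCT5, CCT8 and DNAJA3 kept their sign in every alternative run, and the other genes of these families did not.

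In 3 of 36 members (8.33%) both shPRMT5 arrays lay below both scramble arrays (HSF1, BAG3 and HSPB1), which held for 16.1% of all genes. HSF1 had 390.3 and 295.3 in shPRMT5 cells, against 437.6 and 478.7 in scramble cells (-0.42 ± 0.20, adjusted p = 0.774). BAG3 had 818.9 and 910.2 in shPRMT5 cells, against 1279 and 1223 in scramble cells, a wide gap for these arrays (-0.53 ± 0.16, adjusted p = 0.469). HSPB1 had 2795 and 2792 in shPRMT5 cells, against 3065 and 3279 in scramble cells (-0.18 ± 0.14, adjusted p = 0.875).

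The arrays of the shRNA groups also differed from each other. In both shRNA groups array 2 lay below array 1 for 24 of 36 members, against 32.3% of all genes. HSPE1 shows this spread, with 13726 and 7023 in shPRMT5 cells, against 11844 and 5967 in scramble cells. The actin 5'/3' ratio was 0.187 and 0.335 in shPRMT5 cells and 0.141 and 0.179 in scramble cells. The GAPDH ratio went the other way, with 0.729 and 0.778 in shPRMT5 cells and 0.846 and 0.883 in scramble cells, and the part of RNA integrity in these values was not tested.

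**Figure D3:**
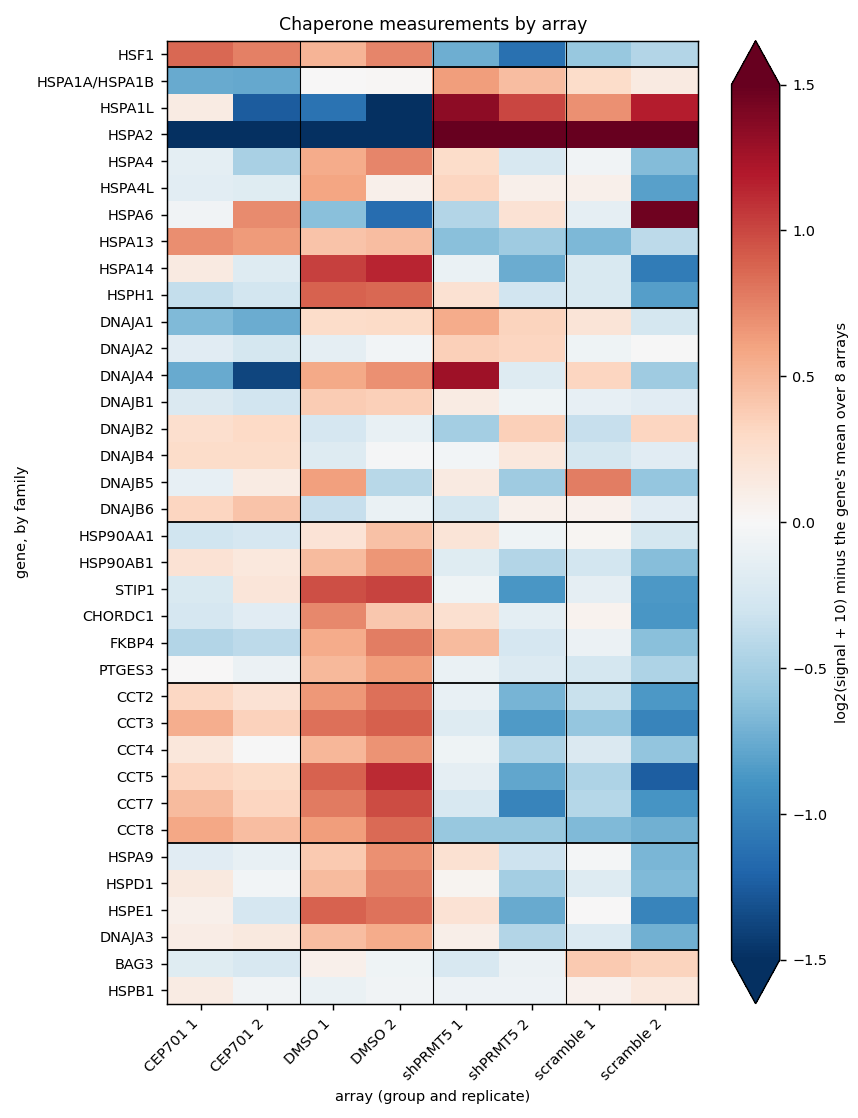
Colour gives log2(signal + 10) of each of the 36 measurements minus the gene's own mean over the 8 arrays, blue below and red above it, with genes in rows by family and arrays in columns. The DMSO columns are red and scramble 2 blue for most HSP90, TRiC and mitochondrial genes, HSPA2 splits the arms, and the colour scale is capped at 1.5 in each direction.

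The third comparison sets the CEP701 effect against the shPRMT5 effect, with no array shared between them. The CEP701 effect was lower than the shPRMT5 effect in 3 of 36 members and higher in none, while 0.332% of all genes were called lower and 1.12% higher. HSPH1 gave -1.68 ± 0.31 (adjusted p = 0.0369), DNAJA1 -1.46 ± 0.24 (adjusted p = 0.0273) and HSPA1A/HSPA1B -1.11 ± 0.22 (adjusted p = 0.0427). FKBP4 gave -1.54 ± 0.37 (adjusted p = 0.0739), HSPA4 -1.34 ± 0.34 (adjusted p = 0.0838), PTGES3 -0.81 ± 0.18 (adjusted p = 0.0652) and DNAJB1 -0.80 ± 0.21 (adjusted p = 0.0952), so a difference was not shown for these 4. The median was -0.67 over the members, against 0.11 over all genes. In 25 of 36 members the value was below 0 with CEP701 and above 0 with shPRMT5, against 24.3% of all genes. With the shRNA pairs as a block, 23 members were called lower, against 7.94% of all genes, and HSPA6 alone was called higher, against 9.4% of all genes. Leaving out scramble replicate 1 gave 13 members (12 lower, 1 higher), when 342 of all genes were called lower, against 47 with every array. Leaving out shPRMT5 replicate 2 gave 6, when 188 of all genes were called lower, and leaving out scramble replicate 2 gave 1, when 15 were. Leaving out any of the other 5 arrays gave 0 by limma with 13 to 18 at an unadjusted p under 0.05.

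The last comparison sets the control groups side by side, scramble minus DMSO, in which the vector, the handling and the arm cannot be told apart. It shares the DMSO arrays with the CEP701 comparison. Scramble was lower in 22 of 36 members and higher in 3, while 20.3% of all genes were called lower and 25.5% higher, and the median was -0.95 over the members, against 0.11 over all genes. All 6 TRiC subunits were lower (median -1.48, -1.85 for CCT5 to -0.99 for CCT4), as were all 6 HSP90 and co-chaperone genes (median -0.99) and all 4 mitochondrial genes (-1.34 for HSPE1 to -0.89 for HSPA9), each under the 3 other scalings in the same direction. CCT8 had 15979 and 15292 in scramble cells, against 39079 and 45744 in DMSO cells (-1.43 ± 0.12, adjusted p = 2.15e-05). HSP90AB1 had 15957 and 12368 in scramble cells, against 26834 and 30498 in DMSO cells (-1.03 ± 0.16, adjusted p = 0.00065). HSP90AA1 differed less, by -0.44 ± 0.15 (adjusted p = 0.0395), with scramble signals of 35302 and 28704 and DMSO signals of 39795 and 46779. Its other probe sets differed by -0.23, -0.25 and 0.14. HSF1 had 437.6 and 478.7 in scramble cells, against 937.9 and 1092 in DMSO cells (-1.13 ± 0.20, adjusted p = 0.0015).

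Of the 8 HSP40 genes 1, DNAJB1 (-0.52 ± 0.15, adjusted p = 0.0188), was lower in scramble and none higher, beside the 20.3% of all genes called lower, and the family's median was -0.05. Whether the families differ from each other was not tested. DNAJA1 had 8193 and 5965 in scramble cells, against 8653 and 8726 in DMSO cells (-0.31 ± 0.17, adjusted p = 0.155). Of the 9 HSP70 and HSP110 genes, HSPH1 (-1.40), HSPA14 (-1.72), HSPA13 (-0.98) and HSPA4 were lower and HSPA2, HSPA1L and HSPA6 higher. The other HSPA13 probe set went the other way, by 0.21 with overlapping groups, while those of HSPH1, HSPA14 and HSPA4 also lay below 0. Summed signals of some marker lists also differed between the arms. The summed signal of the 3 epithelial markers was 5400 and 1045 in shPRMT5 cells, 4972 and 1735 in scramble cells, 173.4 and 237.5 with CEP701, and 146.7 and 112.0 with DMSO. That of the 4 megakaryocyte markers was 28989 and 44976, 34233 and 61235, 11523 and 11504, and 11208 and 11081 in the same order. The epithelial sum rests on EPCAM and CDH1, both below 60.0 on every drug-arm array, while KRT8 was not higher in the shRNA arm. The megakaryocyte sum rests on PF4, and the other 3 markers (ITGA2B, GP9 and GP1BA) overlapped between the arms. The summed signal of the 3 T cell markers was lower in the shRNA arm, at 163.6 and 331.2 in shPRMT5 cells and 280.9 and 215.6 in scramble cells, against 1304 and 1318 with CEP701 and 940.5 and 1064 with DMSO, and rests on CD2. The part of these markers in the chaperone differences was not tested. Without scramble replicate 2, 15 members were lower and 1 higher, when 2248 of all genes were called lower and 2725 higher, against 2878 and 3608 with every array.

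HSPA2, an HSP70 best known from the testis, had signals of 817.3 and 1799 in shPRMT5 cells and 1219 and 2247 in scramble cells, against 39.8 and 43.8 with CEP701 and 59.6 and 47.2 with DMSO. Every shRNA-arm array was above 60.0 and every drug-arm array below it. HSPA1L, the relative of HSPA1A that is also best known from the testis, had 115.2 and 89.1 in shPRMT5 cells and 69.5 and 101.8 in scramble cells, against 43.6 and 10.8 with CEP701 and 12.8 and 2.49 with DMSO, again on either side of 60.0. Its other probe set, which also passed the filter, did not split the arms. There the signals were 10.8 and 46.5 with shPRMT5 and 73.4 and 47.8 with scramble. They were 12.1 and 36.9 with CEP701 and 29.9 and 78.5 with DMSO. On the probe sets used, both genes passed the filter only through the arm in which they were high, and their DMSO signals were too low for a size of the difference, so no fold or p is given and their 2 calls among the 3 higher members are not interpreted. HSPA6 had 130.3 and 413.1 in scramble cells, against 89.2 and 59.4 in DMSO cells (1.55 ± 0.53, adjusted p = 0.0371), with a wide spread between the scramble arrays and 1 DMSO array below 60.0. Its other probe set differed by 0.42 only, with overlapping groups (71.3 and 133.9 in scramble cells, 70.1 and 71.6 in DMSO cells).

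The probe sets of HSPA1A/HSPA1B gave different pictures of the arms. The probe set not used above has an HSPA1A sequence as its source record, and its signals were 12051 and 12057 in shPRMT5 cells and 9851 and 9022 in scramble cells, against 5.10 and 18.4 with CEP701 and 21.8 and 39.7 with DMSO. All 4 drug-arm values were below 60.0 and the lowest shRNA-arm value was 9022, so the size of the difference between the arms is not given. On the probe set used, whose source record is an HSPA1B sequence, scramble minus DMSO was 0.20 ± 0.15 (adjusted p = 0.329), with signals of 1689 and 1529 in scramble cells and 1395 and 1410 in DMSO cells. The annotation lists both genes for both probe sets, so neither signal could be given to 1 of the genes. Probe sequences were not used here.

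**Figure D4:**
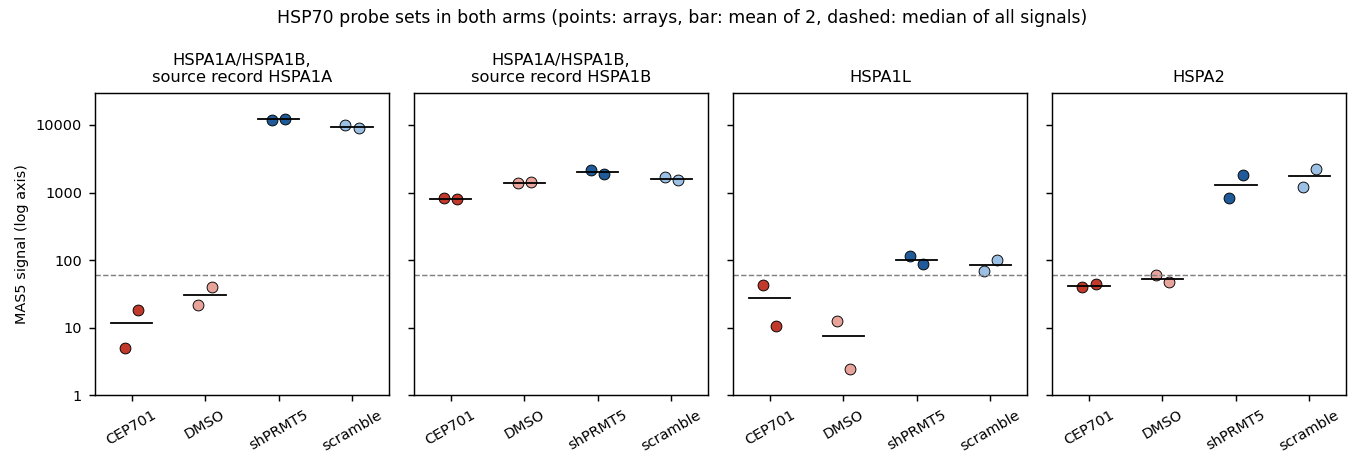
Deposited MAS5 signals are plotted on a log axis for the 2 probe sets of HSPA1A/HSPA1B and for the probe sets used for HSPA1L and HSPA2 on the 8 arrays, with points for arrays, a bar for the mean of 2 and a dashed line at the median of all signals, 60.0. The probe set with the HSPA1A record, HSPA1L and HSPA2 lie above the line in shPRMT5 and scramble cells and below it with CEP701 and DMSO, while the probe set with the HSPA1B record lies above the line in all 4 groups.

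Other chaperone genes that are no members were counted from 6 further lists. Endoplasmic reticulum chaperones had the most calls with CEP701, 9 lower of 17 and none higher (median -0.63). They included CRELD2 (-1.82 ± 0.19, adjusted p = 0.00303), MANF (-1.27 ± 0.15, adjusted p = 0.00418) and HSPA5, the HSP70 of that compartment (-1.13 ± 0.15, adjusted p = 0.00676). Of 11 other mitochondrial chaperones and proteases 2 fell, GRPEL2 (-0.60, adjusted p = 0.0437), an exchange factor, and LONP1 (-0.76, adjusted p = 0.0481), a protease. Of 11 other HSP90 co-chaperones 1 fell, FKBP5 (-0.74, adjusted p = 0.0443), the immunophilin related to FKBP4. None of 15 other HSP70 co-chaperones, 10 other genes linked to heat shock factors or 6 genes of prefoldin and CCT6A passed limma's adjusted threshold. Their unadjusted p was under 0.05 in 3, 3 and 4 cases, against 24% of all genes. CCT6A, the TRiC subunit that is no member, gave -0.91 (adjusted p = 0.0765). With shPRMT5 no gene of the 6 lists was called by limma. In the order above, 2 of 17, 1 of 11, 2 of 11, 1 of 15, 2 of 10 and 1 of 6 had an unadjusted p under 0.05, against 6.69% of all genes. CDC37, which brings kinases to HSP90, gave -1.24 there (adjusted p = 0.297). The CEP701 effect was lower than the shPRMT5 effect in 4 endoplasmic reticulum chaperones, among them SDF2L1 (-2.39, adjusted p = 0.0257), MANF (-1.26, adjusted p = 0.0292) and HSPA5 (-1.17, adjusted p = 0.0353), and in no gene of the other 5 lists.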

How the data were processed

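The values are signal intensities on a linear scale, 1 per probe set and array, which the authors made with MAS5 in Affymetrix Expression Console, per the submitters' processing notes. The version and a genome build are not given in the sources used here. Per the labels' protocols, 200 ng of total RNA were labelled with a 3' IVT kit. There were 54675 probe sets, 62 of them controls. Probe sets were named from the platform annotation, where 41097 name 1 gene and 1801 several, and 41043 symbols were updated through Entrez identifiers.

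Values were analysed as log2(deposited signal + 10). A probe set needed a signal over 60.0, the median over all, on 2 or more arrays, and a gene was read from the 1 of highest mean. The 4 groups on 8 arrays were fitted in 1 model by limma 3.58.1, whose moderated variances followed a trend on mean signal, under R 4.3.3, with the data.table package at version 1.17.8. The fit had 4 residual and 5.37 prior degrees of freedom, and Benjamini-Hochberg adjusted p-values over all genes of a comparison were called below 0.05. The calculation was tested on simulated data. The members and lists were chosen with earlier results of these data known.

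Values on every array are given for members called in a treatment comparison or in the difference, both HSP90 genes, HSPA1A/HSPA1B, HSF1, BAG3, HSPB1, HSPD1 and the member of highest mean signal in each family, and up to 3 genes of lowest unadjusted p are named per other list. HSPA6, HSPA2, HSPA1L, HSPE1 and the second HSPA1A/HSPA1B probe set were added after their values were seen. Deviations of shRNA arrays that share a title suffix correlated across genes (r = 0.323), so these arrays were treated as pairs. In the drug arm, whose arrays share only a number, r was -0.0115. Alternatives changed the added constant, the filter, the scaling, the probe set rule, the variance model, the arrays fitted and the replicate block, and left out each array in turn. Promoter windows were taken from RefSeq, GRCh38.p14.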

Additional observations from a re-analysis of the deposited data

Results flagged for a closer look

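Under CEP701 minus DMSO and shPRMT5 minus scramble, 3 members differed between the treatments by limma's test of the difference itself: HSPH1 by -1.68, DNAJA1 by -1.46 and HSPA1A/HSPA1B by -1.11 on the log2 scale (CEP701 effect minus shPRMT5 effect). Both CEP701 arrays lay below both DMSO arrays in all 3. Groups of 2 arrays are too small for a check of single arrays that stand apart.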

How the results depend on the processing

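With 2 arrays a group, counts of calls depend strongly on the estimate of the spread. Counts at an unadjusted p in alternative runs have no share of all genes beside them, so no excess is read from them. Every called member kept its sign under each alternative run, but leaving out 1 array cannot turn the sign where 2 groups do not overlap. Members that were not called could change sign. With shPRMT5, where none was called, STIP1 ranged from -0.38 to 0.44 and HSPE1 from -0.27 to 0.72. With CEP701, HSF1 ranged from -0.31 to 0.30. Shares in parentheses are of all genes called in either direction. With CEP701, 7 members were called as reported (5.79%), 3 with no filter (2.49%), 11 with median scaling (6.45%), 16 with scaling to the poly-A controls (6.84%), 3 with the mean of a gene's probe sets (3.8%), 0 with no variance trend (1.18%, and 12 members at an unadjusted p under 0.05 in limma) and 23 with the drug arm alone (22.7%). A replicate block in the shRNA arm gave 24 (22.3%), in the drug arm 1 (1.91%) and in both arms 23 (21.4%), and leaving out 1 array gave 0 to 12 (0.0424% to 8.71%). With shPRMT5, 0 (0.148%) became 2 with the replicate block in the shRNA arm (1.74%) and 1 with it in both arms (1.5%). For the difference of the effects, 3 (1.45%) became 1 with quantile normalization (0.805%). It became 0 with poly-A scaling (0.282%), with the mean of probe sets (0.826%) and with no variance trend (0%), where limma gave 26, 19 and 12 members at an unadjusted p under 0.05. It became 24 with the replicate block in the shRNA arm (17.3%), 0 with it in the drug arm (0.155%, and 17 members at an unadjusted p under 0.05) and 22 with it in both arms (16.2%), and 0 to 13 without 1 array (0% to 5.72%). Scramble minus DMSO gave 25 (45.8%), and 16 to 27 without 1 array (31.9% to 48%). Over all genes, scaling moved the CEP701 calls, 290 lower and 530 higher as deposited, to 675 and 239 with median scaling and to 887 and 82 with poly-A scaling. Where a group is left with 1 array, that array is taken to vary like the others. Signals below about 60.0 carry little order, which touches HSPA1L and HSPA2 in the drug arm. It also touches DNAJB5, with 53.7 with CEP701, 41.6 with DMSO, 37.9 with shPRMT5 and 36.3 with scramble on 1 array each. HSPA6 had 59.4 on 1 DMSO array.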
